A study of Mus musculus with 6 samples.

Results

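DNA methylation was compared between CD8+ T cells carrying the N642H mutant form of human STAT5B (hSTAT5BN642H) and CD8+ T cells carrying the nonmutant human gene (hSTAT5B), so that both sides of the comparison expressed a transgene. The 2 hSTAT5BN642H libraries and the 2 hSTAT5B libraries were used out of 6 in the series, and the 2 WT libraries were kept as a reference level. Levels were taken over 5-kb tiles and over gene regions, which are protein-coding genes with 10 kb on either side, on the 19 autosomes of GRCm38. A tile or gene region was a member of the comparison when each of the 4 transgenic libraries held at least 5 CpGs with at least 5 reads, and its level was the unweighted mean of the levels of its CpGs. This gave 74012 of the 372469 tiles with any CpG in the files and 18991 of the 20807 protein-coding gene regions.

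The cells were enriched from lymph nodes of C57BL/6N mice, and the genotypes were wt, hSTAT5B +/T, and hSTAT5B N642H +/T, with both transgenes driven by the Vav1 promoter, which is active throughout the hematopoietic system. Each transgene was a single mouse line, so that the mutation cannot be told apart from the place and copy number of its insertion, and the hSTAT5BN642H mice were diseased while the hSTAT5B mice were healthy. The mice were 13 weeks old. The names of the 2 hSTAT5BN642H samples share a number, the labels do not state that the libraries came from separate mice, and all p-values therefore measure only the spread between these libraries, which may be technical.

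STAT5B is a transcription factor that carries signals from cytokine receptors, among them the receptors for IL-2, IL-7, and IL-15, through JAK kinases to genes of survival, proliferation, and effector function in T cells. The N642H change lies in the SH2 domain, which binds phosphorylated tyrosine and holds active STAT5 dimers together. Methylation of CpGs is copied at cell division by DNMT1 and removed by TET enzymes, and is usually low at active promoters and enhancers and high in the rest of the genome.

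RRBS reads DNA cut with MspI at CCGG after bisulfite treatment, in which only unmethylated cytosines are converted. Each library covered 2597893 to 3445555 CpGs, at a median of 5 to 11 reads per CpG. Read counts summed over CpGs were 43291086 to 67007186, where a read counts at each CpG it covers. hSTAT5BN642H replicate 1 was the deepest library. Neighboring gene regions share CpGs, CpGs on a read share a molecule, and the reads carry no molecular identifiers, so that intervals cover counting error at most. In a bulk sample, more cells with an unmethylated site and a change in every cell cannot be told apart. The genotypes themselves cannot be checked from methylation. The region of Cd8b1, which encodes a chain of the CD8 coreceptor, was at 29.1% and 28.0% in hSTAT5B and 9.29% and 13.1% in hSTAT5BN642H, and the markers of other cell types are given near the end.

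Several of the differences described below lay in short stretches of DNA. The sequences of 8 of them are shown because each holds a run of neighboring CpGs read in all 4 transgenic libraries, with those CpGs in capitals, on the plus strand of GRCm38 (RefSeq), and all were chosen after their values were seen. The 3 stretches of Il2rb, the gene of the β chain of the IL-2 and IL-15 receptors, were picked for the largest differences in that gene region, and each of the other 5 is the short window with the most such CpGs in its tile.
Il2rb, upstream: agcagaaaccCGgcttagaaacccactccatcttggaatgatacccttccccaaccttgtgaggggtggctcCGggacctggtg
Il2rb, intron: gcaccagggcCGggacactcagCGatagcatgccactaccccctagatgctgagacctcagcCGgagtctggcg
Il2rb, beyond the 3′ end: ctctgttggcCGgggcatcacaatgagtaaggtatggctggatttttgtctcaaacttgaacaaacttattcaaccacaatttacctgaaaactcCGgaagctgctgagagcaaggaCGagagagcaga
Hoxa, intron of Hoxa3: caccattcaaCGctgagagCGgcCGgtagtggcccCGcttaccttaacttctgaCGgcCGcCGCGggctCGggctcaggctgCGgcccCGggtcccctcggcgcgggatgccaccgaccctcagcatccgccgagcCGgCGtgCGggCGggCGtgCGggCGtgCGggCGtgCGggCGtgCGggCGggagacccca
Casz1, exon: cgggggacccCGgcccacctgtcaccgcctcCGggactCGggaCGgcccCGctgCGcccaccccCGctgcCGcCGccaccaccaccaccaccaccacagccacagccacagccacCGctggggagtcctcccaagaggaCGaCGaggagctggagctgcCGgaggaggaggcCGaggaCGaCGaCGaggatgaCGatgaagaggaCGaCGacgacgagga
Bcl11b, intron: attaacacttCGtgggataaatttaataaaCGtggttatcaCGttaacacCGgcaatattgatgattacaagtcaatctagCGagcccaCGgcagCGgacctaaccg
Gzmb, upstream: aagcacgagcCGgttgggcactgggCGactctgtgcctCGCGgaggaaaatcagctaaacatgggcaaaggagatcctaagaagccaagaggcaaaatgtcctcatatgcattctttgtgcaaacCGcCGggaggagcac
Camk2b, intron: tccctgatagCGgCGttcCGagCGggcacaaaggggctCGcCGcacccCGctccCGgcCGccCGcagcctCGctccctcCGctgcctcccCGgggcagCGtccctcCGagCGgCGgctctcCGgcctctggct

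Across the genome, methylation was slightly lower with the mutant than with the nonmutant transgene. The mean over the 74012 tiles was 72.1% in both hSTAT5B libraries and 71.2% and 71.4% in hSTAT5BN642H, a difference of -0.855 percentage points, and the 2 genotypes did not overlap. The difference was larger than the spread between replicates (SD 0.0228 and 0.170 percentage points, n = 2 each), but 2 libraries against 2 cannot give an exact permutation p below 0.333, which is the p found here (2-sided). Over the 71524 tiles that also reached the minimum in WT, the means were 71.7% and 71.7% in hSTAT5B, 70.7% and 70.9% in hSTAT5BN642H, and 71.6% and 71.7% in WT. Both hSTAT5BN642H libraries were thus below the other 4.

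The shift was spread over many regions rather than concentrated in few. The median tile difference was -0.733 percentage points, 61.0% of tiles were lower in hSTAT5BN642H, and the mean difference was negative on all 19 autosomes, from -0.734 on chromosome 19 to -1.05 on chromosome 1. Levels did not overlap between the genotypes and were lower in hSTAT5BN642H in 19518 tiles (26.4%), and were higher in 9056 tiles (12.2%). Of the 6 ways to split the libraries 2 against 2, 1 gives no overlap in a given direction. Many features therefore show no overlap, here and below, without any difference between the genotypes. Gene regions averaged 51.9% and 52.5% in hSTAT5B and 50.9% and 51.1% in hSTAT5BN642H, a difference of -1.24 percentage points that also had an exact permutation p of 0.333, with 5464 regions lower (28.8%) and 2074 higher (10.9%) without overlap.

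The lower methylation in hSTAT5BN642H was found where methylation was high, and not where it was lowest. In tiles that were at 80% to 95% in WT, hSTAT5B was at 90.6% and 90.6% and hSTAT5BN642H at 89.1% and 89.4%, a difference of -1.38 percentage points over 29529 tiles. In the 8563 tiles below 10% in WT, the levels were 4.47% and 4.64% in hSTAT5B and 4.66% and 4.59% in hSTAT5BN642H, so that the genotypes overlapped, and the difference of 0.0670 was within the spread of the hSTAT5B replicates. The order was the same by position. Tiles within 1 kb of a transcription start differed by -0.326, tiles in gene bodies by -0.802, tiles within 50 kb of a gene start by -0.935, and tiles farther away by -1.32 percentage points.

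Tiles poor in CpGs and rich in repeats showed the larger differences. The difference was -1.96 percentage points in the 691 tiles with fewer than 25 CpGs in their sequence and -0.412 in the 15747 tiles with 100 or more. It was -0.597 where repeats made up less than 25% of the sequence, and -1.42 in the 8253 tiles with 75% or more. These classes overlap, since CpG-poor tiles lie far from genes and are highly methylated. Over CpGs read in all 4 libraries the same order held, with -1.24 percentage points for the 80% to 95% class, -1.19 for tiles far from genes, and 0.00237 for tiles at transcription starts. In this reading, tiles below 10% in WT were slightly higher in hSTAT5BN642H, without overlap. They were at 4.18% and 4.17% in hSTAT5B and 4.37% and 4.41% in hSTAT5BN642H, a difference of 0.216 percentage points. Tiles at 10% to 50% in WT were also higher, by 0.476 percentage points.

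**Figure D1:**
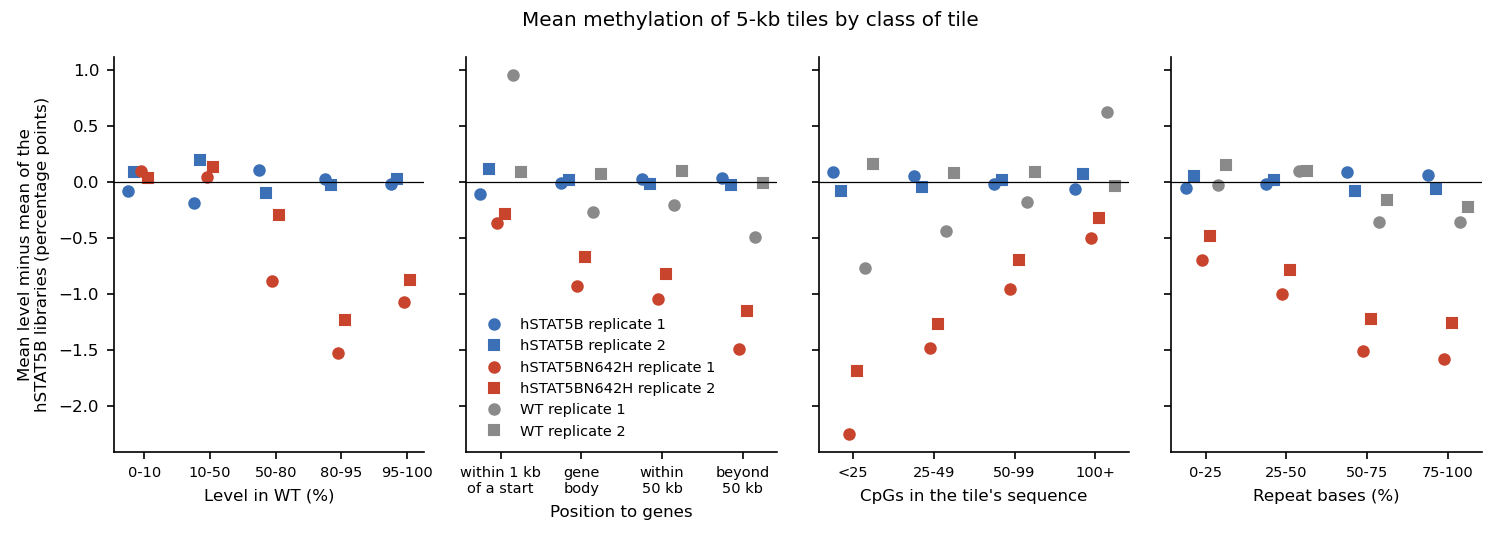
Mean methylation of each library minus the mean of the hSTAT5B libraries, in percentage points, for classes of 5-kb tiles by level in WT, position, number of CpGs, and repeat content (points, 1 per library, circles for replicate 1 and squares for replicate 2). The hSTAT5BN642H points lie below the hSTAT5B points in highly methylated, gene-distant, CpG-poor, and repeat-rich tiles, and WT is left out of the first panel because it set those classes.

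At single regions, no change passed the test. limma on the log2 ratio of methylated to unmethylated reads called 0 of 74012 tiles (0%) and 0 of 18991 gene regions (0%) at an adjusted p of 0.05 (Benjamini-Hochberg), with smallest adjusted p-values of 0.583 and 0.0670. At an unadjusted p under 0.05, 5843 tiles passed, 4431 lower (5.99%) and 1412 higher (1.91%) in hSTAT5BN642H. Among gene regions 1641 passed, 1401 lower (7.38%) and 240 higher (1.26%). A quasi-binomial model of the same reads called 23 tiles, 18 lower (0.0243%) and 5 higher (0.00676%), and 0 gene regions lower (0%) or higher (0%). Fisher's exact test on reads pooled by genotype, which ignores the spread between libraries, called 12926 tiles and 9549 gene regions.

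Differences of at least 10 percentage points without overlap were found in 1880 tiles lower (2.54%) and 1219 tiles higher (1.65%) in hSTAT5BN642H. Among gene regions there were 388 lower (2.04%) and 123 higher (0.648%). Replicates also differed this much. The 2 hSTAT5B libraries were at least 10 percentage points apart in 6778 tiles and the 2 hSTAT5BN642H libraries in 5770, while the genotype means were that far apart in 3737. A mean of 2 libraries varies less than a single library, so that the last count is not like the first 2. With any 1 of the 4 libraries left out, which leaves fewer values to overlap, 5157 to 5817 tiles and 850 to 1159 gene regions were counted, against 3099 and 511 with all of them.

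Most of the large differences of gene regions did not hold when every library was read at the same CpGs. When the level was taken only over CpGs read in all 4 transgenic libraries, a choice for which 374 of the 388 lower gene regions had at least 5 CpGs, 24 of them (6.42%) stayed at least 10 percentage points lower without overlap, and 70 changed sign. Their median difference went from -12.6 to -1.56 percentage points. Of 123 higher gene regions, 111 could be read this way, 11 (9.91%) stayed, and 41 changed sign. Tiles are shorter and held better, with 613 of 1605 lower tiles (38.2%) and 456 of 1062 higher tiles (42.9%) still at least 10 percentage points apart.

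Both readings are therefore given below, first over each library's own CpGs and then over the shared CpGs. Over both readings the genotypes did not overlap in 2532 gene regions lower (13.5%) and 666 higher (3.55%) of 18769, and in 13336 tiles lower (19.1%) and 5361 higher (7.69%) of 69677. The mean difference of gene regions was -0.437 percentage points over shared CpGs.

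**Figure D2:**
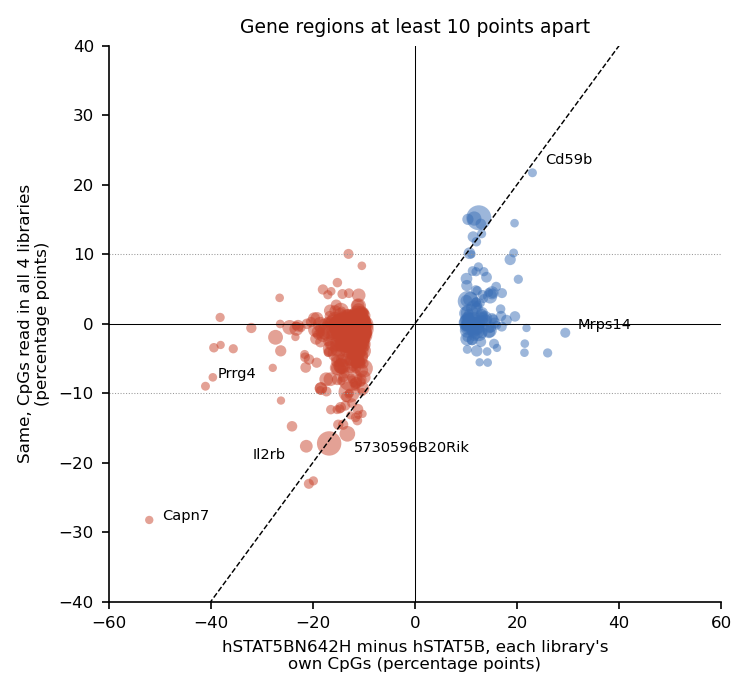
Difference of hSTAT5BN642H minus hSTAT5B in percentage points over each library's own CpGs (x axis) and over CpGs read in all 4 libraries (y axis), for gene regions at least 10 percentage points apart over their own CpGs, with point area growing with the number of shared CpGs and the dashed line marking equal values. Most points fall near 0 on the y axis, while Il2rb, 5730596B20Rik, Capn7, and Cd59b stay beyond 10 percentage points on their side.

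Il2rb had the largest difference of the cytokine receptor genes measured and was among those the naming rule picked. Its region was at 79.8% and 82.0% in hSTAT5B, 60.7% and 58.4% in hSTAT5BN642H, and 81.4% and 79.4% in WT. Both hSTAT5BN642H libraries were below all 4 others, and over 23 shared CpGs the difference was -17.6 percentage points (82.0% and 81.5% against 65.6% and 62.6%). In limma the log2 ratio differed by -1.43 ± 0.20 (SE) with an adjusted p of 0.381, so that the difference did not pass the test across all regions.

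The difference at Il2rb came from separate sites. Of its 23 shared CpGs, 13 were lower without overlap, 3 were higher, and 7 overlapped. Across all 1226051 autosomal CpGs with at least 5 reads in the 4 libraries, 12.5% were lower and 7.99% higher without overlap. Such counts, here and in the tiles below, describe regions picked for their difference and are not tests. Neighboring CpGs can also share reads. The upstream stretch at chr15:78503151-78503234, about 7.9 kb before the start of the gene, was at 97.4% and 92.9% in hSTAT5B and 56.4% and 64.0% in hSTAT5BN642H.

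The intronic stretch at chr15:78489810-78489883 had the largest gap, with 100% and 94.8% in hSTAT5B, 50.6% and 40.8% in hSTAT5BN642H, and 98.5% and 94.9% in WT. Read counts summed over its 3 CpGs were 45 and 51 in hSTAT5B and 66 and 77 in hSTAT5BN642H, where a read counts at each CpG it covers. The 95% Wilson intervals of these sums were 92.1% to 100% and 86.8% to 98.9% against 39.7% to 63.2% and 30.0% to 51.4%. They take the counts as independent and are too narrow where CpGs share reads. The stretch beyond the 3′ end, at chr15:78477889-78478017, was at 64.1% and 65.6% in hSTAT5B and 35.8% and 40.8% in hSTAT5BN642H. In all 3 stretches the levels were near one another in hSTAT5B and WT and lower in both hSTAT5BN642H libraries.

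The other receptor chains of this family differed far less. Il2ra, which encodes the α chain of the IL-2 receptor, was at 94.0% and 92.9% in hSTAT5B and 91.2% and 88.6% in hSTAT5BN642H, and differed by -1.07 percentage points over 31 shared CpGs. Il7r, the IL-7 receptor gene, was 3.38 percentage points higher over each library's own CpGs and 2.41 lower over shared CpGs, where the genotypes overlapped. Of 7 measured genes for receptors of IL-2 and the related cytokines, 2 were lower and 1 higher without overlap, with a median of -0.182 percentage points against -1.12 over all gene regions, and 2 were lower in both readings.

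The Hoxa cluster, which holds homeobox genes active in early hematopoietic cells, carried the tile with the smallest adjusted p in the quasi-binomial model (0.00368). This tile, chr6:52175001-52180000, overlaps Hoxa3 and the gene 5730596B20Rik. It was at 61.3% and 66.9% in hSTAT5B, 38.3% and 42.5% in hSTAT5BN642H, and 69.3% and 72.8% in WT. Of its 64 shared CpGs, 50 were lower without overlap and 0 were higher. The window printed above for Hoxa, at chr6:52175592-52175786, was at 70.3% and 78.7% against 34.9% and 41.7% over its 24 CpGs.

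Another tile of the cluster, not adjacent to the first, lies at chr6:52200001-52205000 over the start of Hoxa5. It was at 93.5% and 94.0% in hSTAT5B and 85.2% and 85.4% in hSTAT5BN642H and was also called by the quasi-binomial model. Among gene regions, 5730596B20Rik had the most shared CpGs of those that stayed at least 10 percentage points lower, with a difference of -16.8 percentage points over each library's own CpGs and -17.2 over 106 shared CpGs. limma gave it an adjusted p of 0.385. This gene region contains the whole tile at chr6:52175001-52180000, so that both results rest partly on the same CpGs.

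A tile near Gzmb, the granzyme B gene of cytotoxic T cells, was among the 18 lower tiles of the quasi-binomial model. It lies 12.7 kb from the Gzmb start at chr14:56275001-56280000, and its CpGs fall in the pseudogene Gm48200, whose reads may be shared with near-identical copies. The level was 84.7% and 81.9% in hSTAT5B, 44.5% and 45.1% in hSTAT5BN642H, and 83.7% and 84.0% in WT. All 6 of its shared CpGs were lower without overlap.

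Lower levels were also found in tiles of Bcl11b, Runx1, and Casz1, which were chosen after their values were seen. A tile in Bcl11b, a gene for a zinc finger factor that maintains T cell identity, was at 46.7% and 40.4% in hSTAT5B, 19.1% and 18.7% in hSTAT5BN642H, and 47.0% and 44.2% in WT, with 10 of 14 shared CpGs lower. A tile in Runx1, which encodes a hematopoietic transcription factor, was at 30.6% and 33.1% against 17.7% and 17.8%. A tile with an exon of Casz1, another zinc finger gene, was at 76.2% and 71.9% against 46.6% and 51.7%, and 32 of its 53 shared CpGs were lower and 0 higher. None of these 3 tiles was called by limma or by the quasi-binomial model.

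Of the remaining lower tiles of the quasi-binomial model, those in Rras2, Elovl5, and Nfix are given, and they were chosen after their values were seen. A tile in Rras2, which encodes a RAS-related GTPase, was at 71.0% and 77.8% in hSTAT5B and 16.7% and 27.6% in hSTAT5BN642H, but rested on 5 shared CpGs. A tile in Elovl5, a gene of fatty acid elongation, was at 57.8% and 66.1% against 14.8% and 14%, and over 5 shared CpGs at 57.8% and 69.7% against 14.9% and 14.3%. In Nfix, a transcription factor gene, the levels were 80.9% and 84.5% against 66.5% and 71.9%, and over 27 shared CpGs 80.2% and 83.8% against 64.8% and 69.8%. In all, 16 of the 18 lower tiles and 4 of the 5 higher tiles did not overlap over shared CpGs, and the tile at Ace, at -13.8 percentage points over each library's own CpGs, was at -0.406 over the shared ones.

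Higher methylation with the mutant was found at fewer sites. A tile in Camk2b, a gene for a calcium/calmodulin-dependent kinase, was at 43.5% and 40.9% in hSTAT5B, 67.8% and 65.5% in hSTAT5BN642H, and 46.3% and 35.2% in WT. Of its 60 shared CpGs, 39 were higher without overlap and 1 was lower. In the window at chr11:6007329-6007461, with 18 CpGs, the levels were 10.5% and 6.42% against 46.4% and 44.8%, and 4.45% and 2.48% in WT, so that DNA with little methylation in WT and hSTAT5B was methylated in a large part of the hSTAT5BN642H reads.

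A tile in Ppp2r1b, which encodes a scaffold subunit of protein phosphatase 2A, was at 48.2% and 40.5% in hSTAT5B and 89.3% and 80.2% in hSTAT5BN642H, and over 6 shared CpGs at 40.7% and 40.5% against 86.5% and 77.7%. The tile at the start of Ing1, a tumor suppressor gene, was at 1.80% and 2.06% against 13.8% and 12.2%, and over 116 shared CpGs at 1.80% and 2.13% against 14.2% and 11.5%. WT was at 9.5% and 2.69% at Ing1, which overlapped neither genotype but came near the hSTAT5BN642H levels in 1 library. Ppp2r1b was called by the quasi-binomial model, and Ing1 was not. A tile in Stat3 was at 45.2% and 34.5% against 50.0% and 52.6%, and limma did not call it (adjusted p 0.682). The tiles of Camk2b, Ppp2r1b, Ing1, and Stat3 were chosen after their values were seen. The whole Stat3 region was lower in hSTAT5BN642H, at 52.3% and 56.6% against 47.9% and 51.9%, but 2.07 percentage points higher over 91 shared CpGs.

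**Figure D3:**
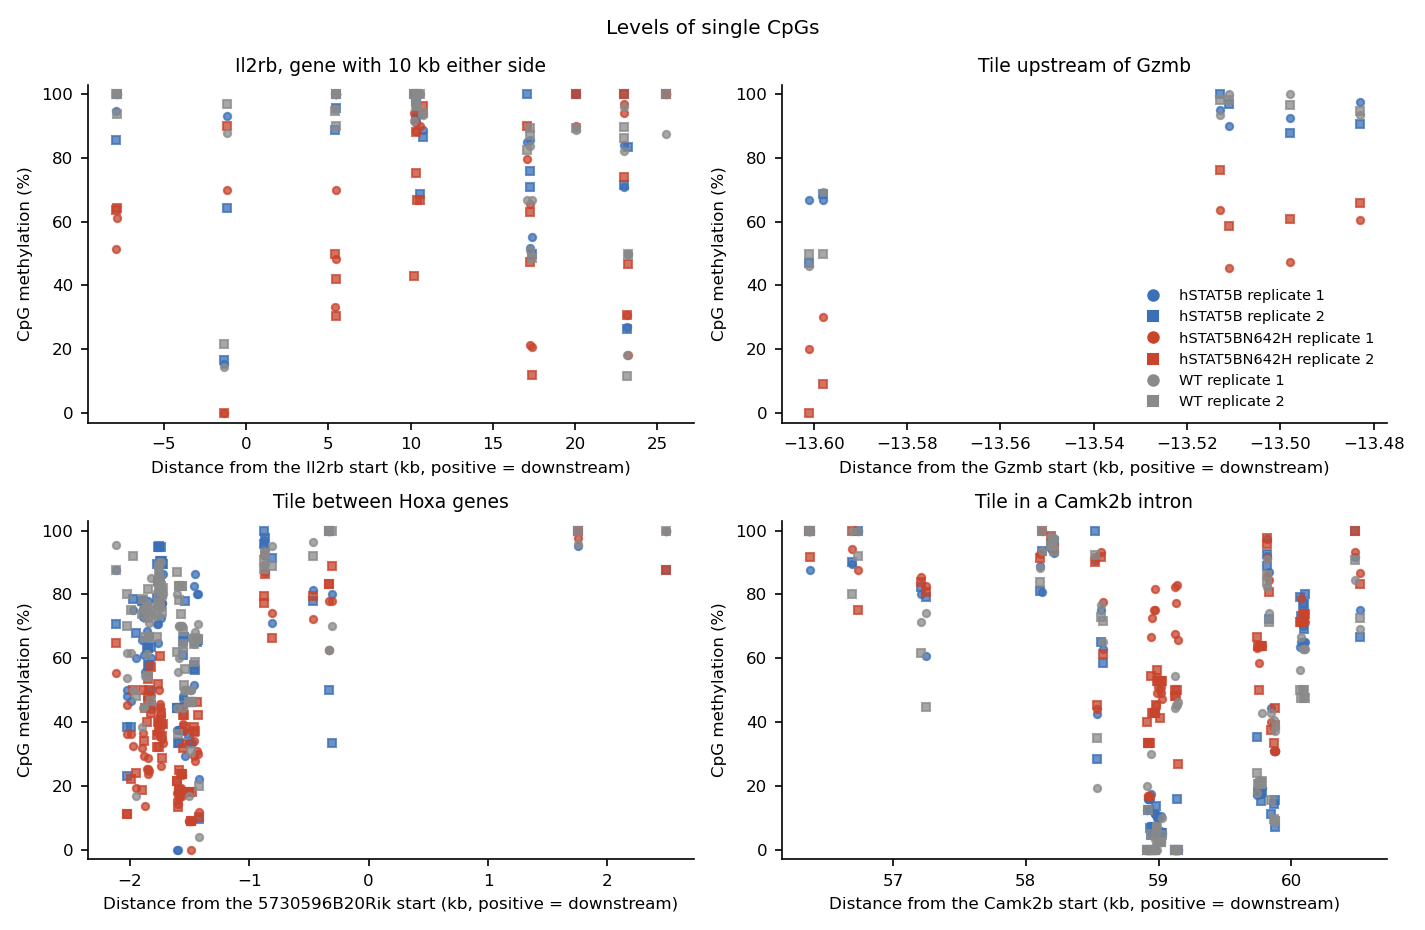
Methylation of single CpGs read in all 4 transgenic libraries (y axis, percent) against distance from the start of the named gene (x axis, kb) in the Il2rb region and in the tiles upstream of Gzmb, over Hoxa3 and 5730596B20Rik (the panel titled as between Hoxa genes), and in a Camk2b intron, with 1 point per CpG and library. The hSTAT5BN642H points lie below those of hSTAT5B at 13 of 23 CpGs of Il2rb, all 6 near Gzmb, and 50 of 64 in the Hoxa tile, and above them at 39 of 60 in Camk2b.

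The naming rule took the 10 gene regions with the lowest unadjusted limma p in each direction among 2034 lower and 633 higher regions with at least 5 percentage points and no overlap. The lower ones were Mmp27, Csf2rb2, Skint4, Vmn1r9, Prrg4, Defb12, Capn7, Gm9040, Iigp1, and Il2rb. Skint4, Vmn1r9, a vomeronasal receptor gene, and Defb12, a defensin gene, were above 80% in all 6 libraries. WT was at 85.4% and 84.8% at Skint4, below both hSTAT5BN642H libraries (92.1% and 91.6%). It was at 89.9% and 82.2% at Vmn1r9, beside 87.7% and 90.8% in hSTAT5BN642H, and at 90.3% and 93.3% at Defb12, beside 90.9% and 88.6%. Mmp27, a matrix metalloproteinase gene, had the lowest adjusted p of all gene regions (0.0670), with 100% in both hSTAT5B libraries against 84.8% and 86.6%. Its difference of -14.3 percentage points was -6.44 over 7 shared CpGs, where hSTAT5BN642H was at 93.0% and 94.1%.

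Csf2rb2 encodes a β chain of the IL-3 receptor, and its region was at 100% in both hSTAT5B libraries and at 93.1% and 91.4% in hSTAT5BN642H, with too few shared CpGs for the second reading. Iigp1, an interferon-inducible GTPase gene of defense within the cell, was at 94.7% and 97.7% against 86.9% and 89.1%, and differed by -9.28 percentage points over 7 shared CpGs. WT was at 87.7% and 88.9% at Iigp1, near the hSTAT5BN642H libraries. Capn7, a calpain protease gene, had the widest gap of the rule, with 86.1% and 93.0% against 28.8% and 46.3%. WT was at 37.2% and 27.6% there, but over 35 CpGs in each WT library. The hSTAT5B libraries held 6 and 7 CpGs and the hSTAT5BN642H libraries 20 and 9, so that these levels cover different sites. The difference over 5 shared CpGs was -28.2, with hSTAT5BN642H at 53.8% and 63.3%.

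Prrg4 showed how far a level could move with the CpGs read, since its difference was -41.0 percentage points over each library's own CpGs and -9.01 over shared ones.

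The higher ones were Agr2, Mfsd10, Mrps14, Arrdc4, Fgl1, Cd59b, Gsta3, Cebpe, Cd93, and Dapp1. The difference of Cd59b, which encodes an inhibitor of complement, was 23.0 percentage points, and over 7 shared CpGs it was 21.7 (62.9% and 57.8% against 79.4% and 84.7%). Dapp1, an adaptor of lymphocyte receptor signaling, was at 81.9% and 79.3% in hSTAT5B and 88.4% and 89.3% in hSTAT5BN642H, with 77.9% and 77.6% in WT and a difference of 7.69 over 28 shared CpGs. Cebpe, a factor of granulocyte maturation, was at 57.0% and 69.9% in hSTAT5B, 77.3% and 88.2% in hSTAT5BN642H, and 79.3% and 74.1% in WT. It was 19.3 percentage points higher in hSTAT5BN642H than in hSTAT5B, and 10.2 over shared CpGs. In contrast, Agr2 went from 9.72 to 0.673, Mrps14 from 29.4 to -1.32, and Arrdc4 from 21.5 to -2.88 when only shared CpGs were read.

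By the same kind of rule, 6 tiles were named in each direction, all with an adjusted p of 0.583. The lower ones lay in Ddit4, a stress response gene, in Dnah8, near Neurod2, and in 3 stretches far from any gene, and those of the higher ones given here in Prkag2, D430042O09Rik, Lman2, Spag1, and Fmnl3. The Ddit4 tile was at 100% in both hSTAT5B libraries against 77.4% and 79.1%, and differed by -9.10 percentage points over its 5 shared CpGs. The Prkag2 tile, in a gene for a subunit of the energy sensor AMPK, was at 8.0% and 13.2% against 48.5% and 53.6%, and kept a difference of 37.2 over shared CpGs. The tile at Spag1 went from 32.5 to 0.720.

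Among gene regions outside the rule, the following stayed at least 10 percentage points apart over shared CpGs, and they were chosen after their values were seen. Tfr2, a transferrin receptor gene, was at 78.0% and 79.4% in hSTAT5B and 63.7% and 67.1% in hSTAT5BN642H, with a difference of -15.9 over 39 shared CpGs. WT was at 76.5% and 78.1% at Tfr2. Ms4a4b, a membrane protein gene of T cells, was at 79.6% and 78.5% against 60.3% and 64.8%, with 87.6% and 78.1% in WT. Igtp, an interferon-inducible GTPase gene, was at 56.1% and 70.0% against 43.0% and 53.9%, with 54.8% and 55.0% in WT. The cytokine gene Il18, the chemokine gene Ccl17, and Slamf1, which encodes a lymphocyte surface receptor, differed by -10.1, -12.3, and -12.4 over 7 or 8 shared CpGs each.

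Snurf, whose region is nearly the same as that of Gm38393, was at 84.8% and 75.1% against 68.1% and 63.7%, and Nap1l5 at 84.6% and 92.0% against 75.1% and 79.1%. WT was at 72.5% and 70.0% at Snurf and at 77.0% and 80.7% at Nap1l5. On the higher side, the region of Pik3c3, which encodes a lipid kinase of autophagy, was at 72.1% and 69.9% in hSTAT5B and 86.7% and 80.4% in hSTAT5BN642H and differed by 15.2 over 111 shared CpGs. Asb4, which encodes a member of the SOCS box family, was at 60.9% and 54.6% against 66.8% and 71.9%, with 15.1 over 31 shared CpGs, and the tile at its start at 37.2% and 30.7% against 65.0% and 62.8%.

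STAT5 target genes were lower more often than they were higher, as were gene regions in general, and the shares of all gene regions without overlap are the measure for each list below. Of 17 measured regions, 7 were lower and 0 higher without overlap, beside 28.8% and 10.9% of all gene regions, with a median of -1.59 percentage points beside -1.12, and none passed the test (limma). In both readings 6 of 16 were lower and 0 higher, beside 13.5% and 3.55%, and the median over shared CpGs was -0.809 beside -0.326.

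Pim1, a survival kinase gene, was at 10.9% and 9.63% in hSTAT5B, 5.99% and 4.77% in hSTAT5BN642H, and 11.9% and 12.1% in WT. Over 101 shared CpGs its levels were 8.05% and 7.52% against 4.83% and 4.38%. The antiapoptotic genes Bcl2 and Mcl1 differed by -3.03 and -0.836 over shared CpGs, and Ccnd2, a cyclin D gene, by -1.61.

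Cish, a feedback inhibitor of STAT5 signaling, overlapped at 30.5% and 37.1% against 31.6% and 33.6%. Ccl5, a chemokine gene of effector T cells, was at 85.4% and 67% against 67% and 64.4%, with the hSTAT5B libraries far apart and fewer than 5 shared CpGs.

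**Figure D4:**
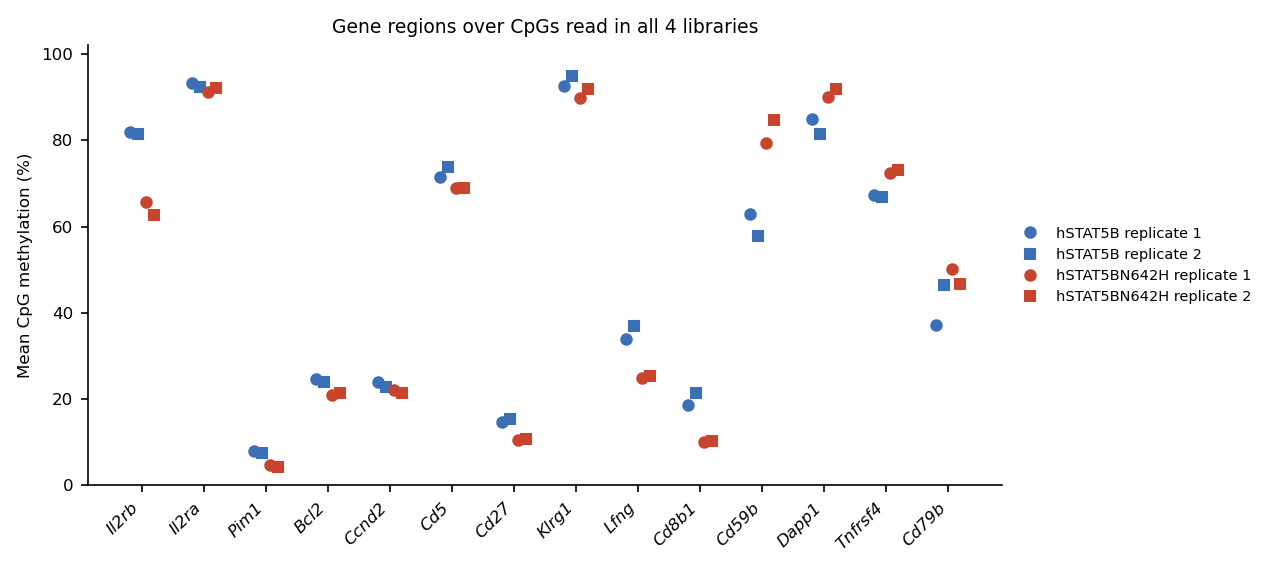
Methylation (y axis, percent) of 14 gene regions over CpGs read in all 4 transgenic libraries, with 1 point per library, for genes of cytokine receptors, STAT5 targets, T cell signaling and markers, and 4 regions with higher levels in hSTAT5BN642H at the right. Il2rb has the widest gap among the lower regions, from 82.0% and 81.5% in hSTAT5B to 65.6% and 62.6%, and Cd59b the widest among the higher ones.

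JAK and STAT genes did not lean one way. Of 11 regions, 2 were lower and 2 higher, 1 each in both readings, and over shared CpGs the median was 0.276 percentage points. Jak1, the kinase of the common cytokine receptors, was at 33.4% and 29.5% against 28.7% and 27.3%, with -1.99 over 77 shared CpGs. The mouse Stat5b gene itself was at 45.6% and 45.1% against 43.2% and 50.0%.

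Genes of the T cell receptor pathway were lower in 7 and higher in 3 of 16 regions, with a median of -1.82 percentage points, and in both readings 3 were lower and 1 higher. Cd5, an inhibitory coreceptor gene, was at 71.7% and 73.8% against 66.8% and 60.7%, with -3.67 over 27 shared CpGs. Of 10 costimulatory and inhibitory receptor genes, 2 were lower and 2 higher, 1 each in both readings. Cd27 was at 17.5% and 25.4% against 9.38% and 11.2%, with -4.41 over 12 shared CpGs, and Tnfrsf4, which encodes OX40, was at 67.2% and 66.9% against 72.3% and 73.2% over its 7 CpGs.

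Cytotoxic and effector genes were lower in 4 and higher in 0 of 17 regions, with a median of -1.75 percentage points, and 2 were lower in both readings, namely Klrg1 (-2.89 over 21 shared CpGs), a receptor of differentiated effector cells, and Runx3 (-1.08 over 197), a factor of CD8+ T cell development. Genes of naive and memory cells were lower in 4 and higher in 3 of 14, with a median of -0.307, and 2 were lower and 0 higher in both readings.

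Of 16 Notch pathway genes, 6 were lower and 1 higher, and 2 were lower in both readings. Lfng, which encodes a glycosyltransferase that modifies Notch receptors, was at 32.4% and 36.3% against 24.2% and 25.8%, and over 76 shared CpGs at 33.9% and 36.9% against 24.9% and 25.4%. A tile in the adjacent gene Ttyh3, 12.7 kb from the Lfng start, was called lower by the quasi-binomial model at 79.4% and 86.7% against 61.2% and 61.5%, and lay at 95.7% and 91.7% in WT.

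Cell cycle genes were lower in 7 and higher in 2 of 23 regions in both readings (median -1.01 percentage points, and -0.645 over shared CpGs). The lower ones included Ccne1, the gene of cyclin E1, at 14.6% and 17.5% against 13.4% and 12.1%, and Foxm1, a mitotic transcription factor gene, at 34.7% and 41.4% against 31.8% and 31.7%, with -2.02 over 96 shared CpGs. Aurkb, a mitotic kinase gene, was higher at 15.2% and 13.9% against 18.1% and 16%, with 1.34 over 88 shared CpGs. Top2a, the topoisomerase II gene, was at 72.0% and 86.1% against 74.0% and 74.1% and overlapped.

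Genes of polycomb and DNA methylation enzymes were lower in 2 and higher in 3 of 13 regions, with a median of -0.345 percentage points, and 2 were lower and 1 higher in both readings. Dnmt1 was 2.44 higher over each library's own CpGs and 1.96 lower over 118 shared CpGs, and Ezh2, the polycomb methyltransferase gene, overlapped at 22.5% and 21.5% against 18.8% and 23.5%. Genes of CDK inhibitors and tumor suppressors were lower in 4 and higher in 2 of 10, and 1 was lower in both readings, Cdkn2c, at 5.70% and 5.42% against 3.94% and 4.26%, with -0.952 over 167 shared CpGs.

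**Figure D5:**
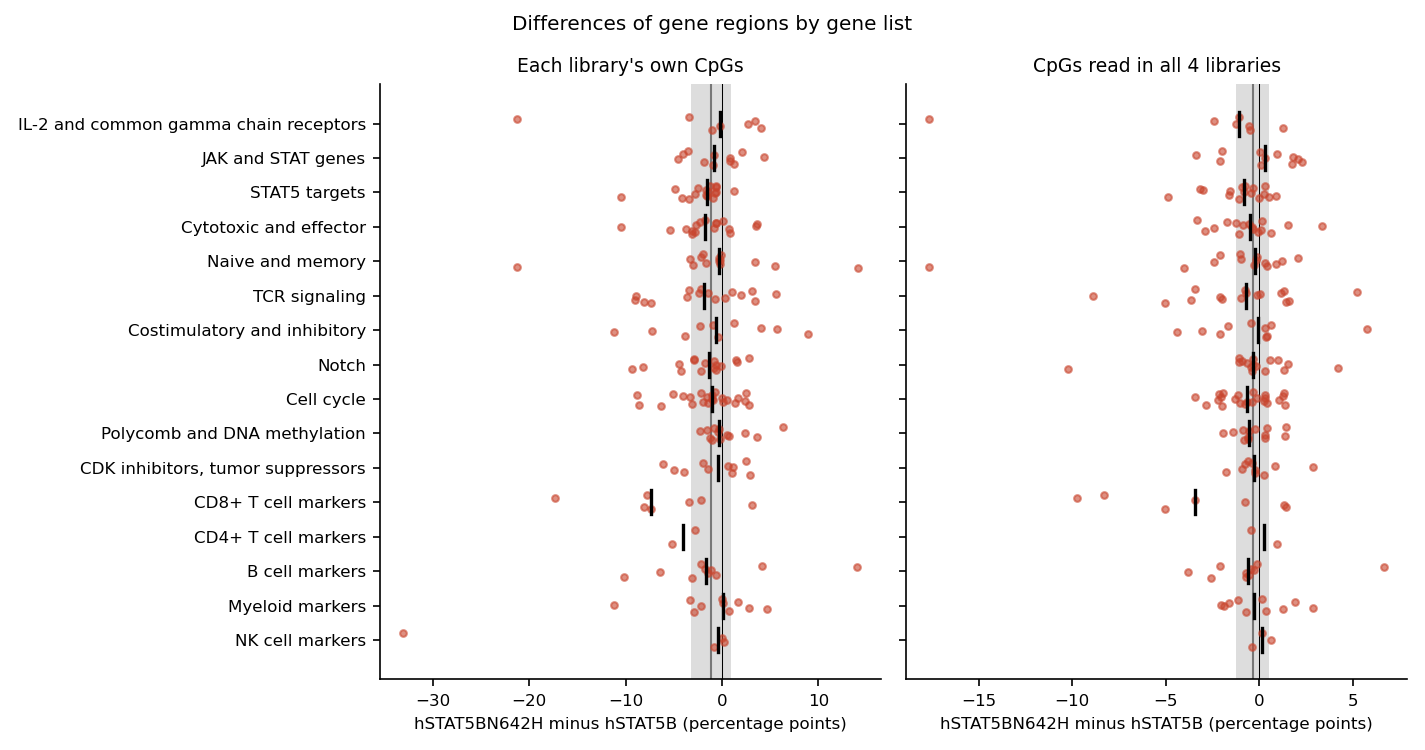
Difference of hSTAT5BN642H minus hSTAT5B (x axis, percentage points) for the genes of 16 lists, over each library's own CpGs on the left and over CpGs read in all 4 libraries on the right, with points for genes, black bars for list medians, and the grey line and band for the median and quartiles of all gene regions. Most list medians lie within the band, those of the CD8+ T cell markers lie to its left at -7.37 and -3.45, that of the CD4+ T cell markers does so on the left only, and Il2rb stands far to the left of its lists.

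Marker genes of the sorted cells and of other cells moved as follows. CD8+ T cell markers were lower in 4 and higher in 1 of 7 regions, with a median of -7.37 percentage points and -3.45 over shared CpGs, and 1 was lower and 1 higher in both readings. Cd8b1 differed by -9.76 over 11 shared CpGs, and WT was at 42.1% and 50.7%, above both transgenic genotypes. Cd8a, whose region lies beside it, overlapped at 31.0% and 43.1% against 33.3% and 25.3%. Of the CD4+ T cell markers, Cd4 and Zbtb7b were lower over each library's own CpGs, and both overlapped over shared ones.

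B cell markers were lower in 3 and higher in 2 of 10 regions, and in 3 and 1 in both readings. Cd79b, a chain of the B cell receptor, was at 55.6% and 61.6% in hSTAT5B and 72.6% and 72.7% in hSTAT5BN642H, with 66.6% and 67.2% in WT, but at 37.1% and 46.4% against 50.1% and 46.7% over 14 shared CpGs. Myeloid markers were lower in 4 and higher in 1 of 10, with 1 each in both readings, and 1 of 4 NK cell markers was lower, Klrb1c, where 1 hSTAT5B library stood apart at 95.8% with 44.7% in the other. The mean over each list lay between 51.2% and 52.9% for the CD8+ T cell markers in hSTAT5B and between 45.5% and 46.3% in hSTAT5BN642H, and between 56.9% and 58.5% in all 4 libraries for the B cell markers. The part of a different mix of cells in the differences above was not tested.

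The tiles at least 10 percentage points apart had few measured CpGs more often than other tiles. A library with fewer than 10 CpGs was found in 76.0% of the lower and 73.3% of the higher ones, beside 57.0% of all tiles. They also had intermediate levels in WT, between 20% and 80%, in 50.3% and 70.0% of cases, beside 16.4% of all tiles.

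The 2 transgenic genotypes and WT gave the following values side by side. In 1274 of the 1790 lower tiles with a WT level, the WT mean lay between the hSTAT5BN642H and the hSTAT5B mean, in 377 it lay above hSTAT5B, and in 139 below hSTAT5BN642H. It lay between them in 752 of 1163 higher tiles and in 24260 of 71524 tiles in all, and a wide gap between the genotypes leaves more room for a level in between. The sequence TTCCNGGAA, a tight form of the STAT5 motif on either strand, occurred in 14.7% of the lower tiles and 16.8% of the higher tiles, beside 13.4% of all tiles. The looser TTCNNNGAA, which contains the tight form, occurred in 76.8% and 78.3%, beside 78.8%. These are counts of letters in 5 kb of sequence and not of binding.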

How the data were processed

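RRBS libraries of CD8+ T cells from lymph nodes, 2 per genotype, were used. The authors used Trimmomatic for trimming and BSMAP for alignment to GRCm38, and their own code counted methylated and total reads per CpG, and tool versions are not given in the sources used here. The deposited files hold these read counts, not normalized, as a ratio of methylated to total reads per CpG. A score in the deposited files, derived by the authors from the same ratio, served as a check of the counts.

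Genes were taken from GENCODE M21. CpGs with fewer than 5 reads were left out per library, and strands were already combined. Methylated and unmethylated reads were summed per tile or gene region, and log2((methylated + 1)/(unmethylated + 1)) was fitted in limma 3.58.1 (R 4.3.3) with all 6 libraries and genotype as the only term, with the contrast of hSTAT5BN642H minus hSTAT5B and Benjamini-Hochberg adjustment over all features at 0.05. A feature below the minimum in a WT library was fitted without that library. The level, in contrast, gives each CpG equal weight. The study states no test per region. The limma and quasi-binomial fits, which start from the summed reads, were tested on simulated reads. The simulation did not model which CpGs each library reads, so that it cannot speak to differences from that source.

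The named genes were the 10 gene regions per direction with the lowest unadjusted p among those without overlap and at least 5 percentage points apart, leaving out regions sharing most CpGs with a named one, 6 tiles per direction by the same rule at 10 percentage points with a gap wider than either range within a genotype, and members of gene lists. The members, lists, and rules were chosen with earlier results of these data known. Alternatives were other minimums of reads and CpGs, CpGs read in all 4 transgenic libraries, tiles of 1 kb, gene bodies alone, all annotated genes, pooled reads, leaving out CpGs of 1000 reads or more, leaving out each library, only the 4 transgenic libraries, an offset of 0.5, a trended robust prior, mean CpG levels, a quasi-binomial model, Fisher's exact test, and a replicate block. Centering each library, and shared CpGs for classes of tiles and gene lists, were added after the data were seen. Replicates of a genotype differed beyond counting noise, with a mean chi-square per CpG of 2.14 in hSTAT5B and 2.08 in hSTAT5BN642H, where counting noise alone gives 1, so that no library was counted as a copy of another. Replicate numbers were not used to pair the libraries in the main fit. RNA, ChIP, and drug data were not used here, and some named features are not reported here. Software versions were scipy 1.17.1, pysam 0.24.0, matplotlib 3.10.9, pandas 2.3.3, numpy 2.4.6, and Python 3.11.15.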

Additional observations from a re-analysis of the deposited data

How the results depend on the processing

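The mean differences of tiles and gene regions stayed negative under all alternatives run. That of tiles was -0.612 percentage points with at least 10 CpGs, -0.680 over CpGs read in all 4 transgenic libraries, and -0.556 in tiles of 1 kb. That of gene regions was -2.0 with at least 10 reads per CpG, -0.437 over shared CpGs, and -1.88 with reads pooled per region. Calls appeared under 3 alternatives only, with 23 tiles by the quasi-binomial model, 12926 tiles and 9549 gene regions by Fisher's exact test with reads pooled by genotype, and 1 gene region (Mmp27) with an offset of 0.5. The replicate number as a replicate block gave 0 tiles and 0 gene regions. The deviations of hSTAT5B and hSTAT5BN642H libraries with the same number correlated at 0.011 over tiles and 0.055 over gene regions. The main fit took the libraries as unpaired, and low correlations cannot show that no pairing existed. Tiles at least 10 percentage points apart numbered 1922 with at least 10 reads per CpG, 777 with at least 10 CpGs, 1631 over shared CpGs, 10652 at a threshold of 5 percentage points, and 5157 to 5817 without 1 library. Such gene regions numbered 1107 with at least 10 reads per CpG, 64 over shared CpGs, 777 in gene bodies, 1203 over all annotated genes, 2667 at 5 percentage points, and 850 to 1159 without 1 library. Of 144 named genes and tiles, 26 changed sign under an alternative and 118 did not. Over shared CpGs the differences were -1.32 for Mrps14, -2.88 for Arrdc4, -2.41 for Il7r, 2.07 for Stat3, 0.316 for Cish, 0.0870 for Zeb2, -4.02 for Ly6c2, 1.44 for Cd2, -2.08 for Cd160, 1.55 for Jag2, 0.324 for Kntc1, -1.96 for Dnmt1, -0.602 for Uhrf1, -0.609 for Cdkn1a, 0.929 for Zbtb7b, and -2.10 for Cd79a. With at least 10 reads per CpG they were -4.14 for Jak2, 0.0813 for Stat3, 1.61 for Ccnd2, 3.43 for Cd3d, -2.0 for Cd160, -2.33 for Ezh1, -1.41 for Dnmt1, -2.43 for Uhrf1, 3.18 for Blk, and 0.759 for Fcer2a. With pooled reads they were -1.21 for Jak2, 2.43 for Cish, -0.305 for Aurkb, -2.0 for Ezh1, -0.954 for Uhrf1, -0.440 for Cdkn1a, 0.344 for Cd4, and 3.18 for Blk. Without 1 library, Cish ranged from -4.54 to 2.09, Top2a from -12.1 to 1.99, and Cdkn2a from -1.32 to 2.65. The cause of these changes was not tested, apart from the fewer CpGs or libraries that each alternative leaves. A median of 5 to 11 reads per CpG sets the precision of a single CpG, so that regions with few CpGs carry wide counting error.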

Other observations

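The X chromosome was left out of the comparison above. Its 2467 tiles with the same minimum averaged 78.4% and 78.3% in hSTAT5B, 77.0% and 77.2% in hSTAT5BN642H, and 78.2% and 78.1% in WT, a difference of -1.24 percentage points, with 761 tiles lower (30.8%) and 229 higher (9.28%) without overlap.

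Of 69677 tiles with at least 5 shared CpGs, 613 were lower and 456 higher in hSTAT5BN642H by at least 10 percentage points without overlap over both readings. With at least 10 shared CpGs there were 116 lower and 101 higher tiles, and their share of all tiles with that many was not taken. Among the lower tiles, the tile near Prdm16, which encodes a zinc finger transcriptional regulator of hematopoietic stem cells, was at 37.4% and 42.5% in hSTAT5B, 18.4% and 24.8% in hSTAT5BN642H, and 40.8% and 54.6% in WT. A tile within Esr1, the estrogen receptor α gene, was at 35% and 46.5% against 18.2% and 13.7%, with 40.9% and 53.0% in WT. Over 33 shared CpGs it was at 29.1% and 50.8% against 24.5% and 14.6%, with the hSTAT5B libraries far apart. A tile 2.7 kb from the start of Pik3c3 was at 50.5% and 47.4% against 79.7% and 70.6%, with 57.6% and 46.6% in WT. These tiles were chosen after their values were seen.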
